A study of Mus musculus with 12 samples.

Results

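The 6 genes Mum1l1, L3mbtl4, Aldh1b1, Pgbd5, Nipal4 and Adarb1 were followed in uterine tissue of pregnant mice that overexpressed an isoform of the progesterone receptor. They were taken by gene symbol from a table of 24964 genes, and all 6 passed the filter on low counts that left 15561 genes tested. They were chosen by their measured difference between the mice with isoform B and the mice with isoform A, so that difference is described here without a test. Each isoform group was then placed against the control group.

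The tissue was labelled uterine and collected at 13.5 days post coitum. Control libraries came from mice of the genotype Myh11Cre. PGR-A OE libraries came from the genotype Myh11Cre; LSLPGRA/+ and PGR-B OE libraries from Myh11Cre; LSLPGRB/+. Every mouse, control mice included, thus carried the Cre driver of Myh11, the smooth muscle myosin heavy chain gene, and the study places the overexpression in the myometrium. Each group held 4 libraries. The labels do not say that these came from separate animals, so p-values measure the spread between libraries, part of which may be technical.

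The progesterone receptor is a nuclear receptor that binds DNA and changes transcription when progesterone is present, and it keeps the uterus quiescent during pregnancy. Isoform B carries an additional stretch at its amino terminus that isoform A lacks, and both come from the same gene. The 6 genes belong to unrelated families. Mum1l1, also called Pwwp3b, encodes a protein with a PWWP domain, a fold known for binding histone tails and DNA. L3mbtl4 encodes a protein of the malignant brain tumour (MBT) repeat family, whose repeats bind methylated lysines. Aldh1b1 encodes a mitochondrial aldehyde dehydrogenase, an enzyme that oxidizes aldehydes to acids. Pgbd5 encodes a protein derived from the piggyBac transposase. Nipal4, the ichthyin gene, encodes a membrane protein of a family of magnesium transporters and is mutated in ichthyosis, a disorder of the skin barrier. Adarb1 encodes ADAR2, the enzyme that edits adenosine to inosine in double-stranded RNA.

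The genes lie on 6 different chromosomes of GRCm38, by the GENCODE annotation. Mum1l1 spans chrX:139210042-139238335 and L3mbtl4 chr17:68273797-68780086, both on the plus strand. Aldh1b1 spans chr4:45799022-45804604 on the plus strand. Pgbd5 (chr8:124369049-124439658), Nipal4 (chr11:46148155-46166508) and Adarb1 (chr10:77290726-77418270) are on the minus strand. L3mbtl4 holds 2 processed pseudogenes within its span, Gm15974 and AC154493.1, and neither overlaps an exon of it. The other 5 overlap no annotated gene.

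Promoter sequence is shown for 3 of them, because members of each set moved together: Mum1l1 as a gene raised with isoform B, and Aldh1b1 and Adarb1 as genes raised with isoform A. The sequences run 5′ to 3′ on the strand of the gene and end where RefSeq or GENCODE annotates the first transcribed base. They are RefSeq sequence of GRCm38.p6, from chrX:139209794-139209976, chr4:45798772-45799021 and chr10:77418293-77418523. Capitals mark the GC box GGGCGG or its reverse complement CCGCCC.
Mum1l1: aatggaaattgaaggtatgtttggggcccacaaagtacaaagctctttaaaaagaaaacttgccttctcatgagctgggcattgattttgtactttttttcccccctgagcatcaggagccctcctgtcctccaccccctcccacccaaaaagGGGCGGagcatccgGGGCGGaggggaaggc
Aldh1b1: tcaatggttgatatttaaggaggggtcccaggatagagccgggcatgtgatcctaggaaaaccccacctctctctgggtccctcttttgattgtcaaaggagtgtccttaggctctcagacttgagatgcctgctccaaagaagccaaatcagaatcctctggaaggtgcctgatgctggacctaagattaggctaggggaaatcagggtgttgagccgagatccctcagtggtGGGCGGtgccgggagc
Adarb1: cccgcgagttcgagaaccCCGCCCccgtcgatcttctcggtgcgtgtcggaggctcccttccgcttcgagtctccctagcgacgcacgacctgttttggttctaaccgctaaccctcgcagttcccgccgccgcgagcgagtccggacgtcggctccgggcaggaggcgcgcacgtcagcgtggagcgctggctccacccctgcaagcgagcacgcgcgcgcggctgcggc

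All 6 genes matched a RefSeq promoter, Mum1l1 with 2 start sites and the others with 1 each. In the 250 bases before each start, both strands were searched for the half-site AGAACA of the progesterone response element, for the full element (the half-site, 3 bases of any kind and its reverse complement TGTTCT) and for the core ACANNNTGT. None of the 3 motifs was in any of these windows of the 6 genes. Of 32817 such windows of all genes, 0.00914% held the full element, 5.84% the core and 16.1% the half-site; the element contains the core and the half-site. The GC box occurred in Mum1l1 (4 times, all before its first start), Pgbd5, Nipal4 and Adarb1 (2 times each) and Aldh1b1 (1 time), and not in L3mbtl4; 32.7% of all windows hold it. The Mum1l1 and Adarb1 boxes not printed lie in the bases left out above. Base composition differed between the genes, with a GC content of 53.2% for Aldh1b1 and 74.4% for Pgbd5, against a median of 52.4% for all windows. The Adarb1 window held 40 CG pairs and the Aldh1b1 window 4. A match of letters is not evidence of binding, and the window of Pgbd5, and part of that of Nipal4, lie inside an exon of a longer GENCODE transcript. The L3mbtl4 window and the second Mum1l1 window lie wholly inside the RefSeq span of their gene, so the motif counts there are not those of sequence upstream of the gene.

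The 12 libraries held between 31872534 and 33078483 counts. Levels are given in CPM, counts scaled to a common library size with factors from the trimmed mean of M-values. The receptor gene Pgr averaged 121.3 ± 16.5 CPM over the controls, 199.7 ± 38.5 CPM over PGR-A OE and 223 ± 26.5 CPM over PGR-B OE (SD, n = 4), and the counts do not separate its isoforms. It rose in PGR-B OE (log2 0.88, adjusted p = 0.0196 by edgeR) and in PGR-A OE (log2 0.72, adjusted p = 0.0416 by edgeR), and the overexpression groups overlapped. On the first principal component, 11 libraries ran from -31.0 to 7.58 and PGR-A OE replicate 4 lay at 62.4. In that library Krt5, a keratin of stratified epithelium, reached 735 CPM, against at most 1.18 CPM in any other library. The call of Pgr in PGR-A OE ended without that library (log2 0.58, adjusted p = 0.0608 by edgeR). The changes of the 6 genes in PGR-A OE, and the counts of their relatives there, are therefore also given without it. Because whole tissue was sequenced, a change in the share of cells that express a gene and a change in its RNA per cell cannot be told apart.

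Mum1l1 and L3mbtl4, both coding for proteins with chromatin-binding domains, rose with isoform B. Mum1l1 was 6.50-fold and L3mbtl4 3.84-fold higher in PGR-B OE than in control. In PGR-A OE, Mum1l1 was at the control level and L3mbtl4 lay 1.22-fold above it without passing the test. These were the 2 of the 6 genes that passed in PGR-B OE against control, where 0.283% of all genes tested rose.

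Mum1l1 was at 2.32, 2.42, 1.86 and 2.65 CPM in control replicates 1 to 4. It was at 2.27, 2.07, 1.45 and 3.44 CPM in PGR-A OE and at 16.9, 8.49, 20.8 and 14.05 CPM in PGR-B OE. The PGR-B OE libraries lay above all other libraries, and their lowest, replicate 2, was above the highest of the PGR-A OE libraries, replicate 4. The log2 change in PGR-B OE was 2.701 (SE 0.29, edgeR quasi-likelihood, Benjamini-Hochberg adjusted p = 0.00193). In PGR-A OE the log2 change was -0.002 with a 95% interval from -0.64 to 0.63 (adjusted p = 0.998 by edgeR), so changes within that interval are not excluded. Its sign turned when single libraries were left out, with values from -0.26 without PGR-A OE replicate 4 to 0.17 without PGR-A OE replicate 3.

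L3mbtl4 was at 4.29, 2.54, 3.16 and 4.44 CPM in the control libraries. PGR-A OE held 4.25, 4.03, 4.56 and 4.76 CPM, and PGR-B OE 15.6, 15.7, 11.6 and 12.6 CPM. Control and PGR-A OE overlapped, and all PGR-B OE libraries were above both. The log2 change in PGR-B OE was 1.94 (SE 0.18, edgeR quasi-likelihood, Benjamini-Hochberg adjusted p = 0.000497). In PGR-A OE it was 0.29 with a 95% interval from -0.10 to 0.67 (adjusted p = 0.46 by edgeR).

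**Figure D1:**
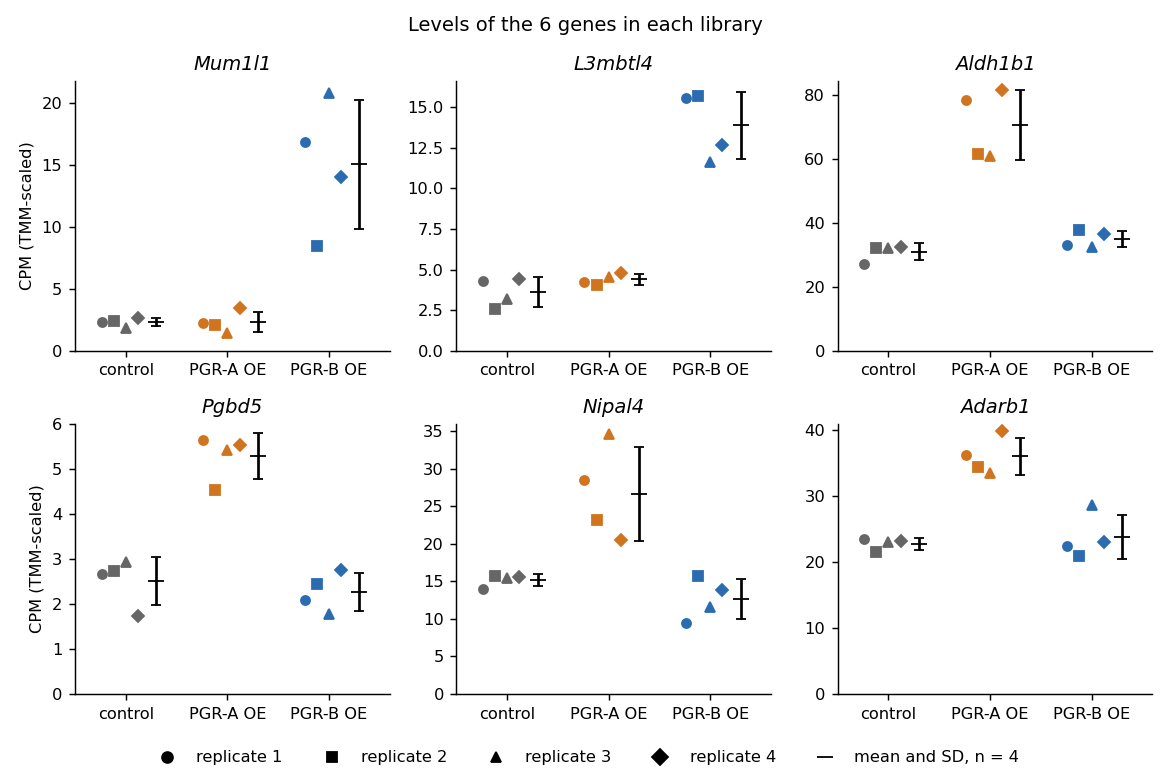
Level of each of the 6 genes in CPM (vertical axis, from 0, scaled per gene) in the 4 libraries of each group (horizontal axis); marker shape is the replicate number, and bars give the mean and SD. Mum1l1 and L3mbtl4 are high in the 4 PGR-B OE libraries, with means of 15.06 and 13.9 CPM, and the other 4 genes are high in the 4 PGR-A OE libraries.

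Aldh1b1, Pgbd5 and Adarb1 rose with isoform A, 2.29-fold, 2.10-fold and 1.58-fold over control. Nipal4 was 1.76-fold higher but missed the threshold. In PGR-B OE none of these 4 genes passed against control (at an unadjusted p under 0.05, 0 of the 4 by edgeR and 0 called by DESeq2 or limma voom). Thus 3 of the 6 passed when PGR-A OE was set against control, where 0.482% of all genes tested rose, and 4 of the 6 had PGR-A OE libraries that were all above the control libraries, as did 5.01% of all genes. The overexpression libraries in these comparisons are those on which the genes were chosen, and both comparisons share the control libraries, so the counts are no independent support for the pattern.

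Aldh1b1 was at 27.02, 32.3, 32.1 and 32.5 CPM in control replicates 1 to 4. PGR-A OE held 78.6, 61.8, 61.1 and 81.8 CPM, and PGR-B OE 33.3, 37.9, 32.6 and 36.6 CPM. The PGR-A OE libraries were well above both other groups. The log2 change in PGR-A OE was 1.19 (SE 0.11, edgeR quasi-likelihood, Benjamini-Hochberg adjusted p = 0.000448), the third lowest p of all genes tested. PGR-B OE also lay above control in every library, by a narrow margin and with a log2 change of 0.18 (95% interval -0.06 to 0.41, adjusted p = 0.653 by edgeR); such a lack of overlap was found for 3.07% of all genes.

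Adarb1 was at 23.5, 21.5, 23.01 and 23.2 CPM in control. It was at 36.3, 34.4, 33.5 and 39.9 CPM in PGR-A OE and at 22.4, 20.9, 28.7 and 23.1 CPM in PGR-B OE. The PGR-A OE group overlapped neither other group, whereas PGR-B OE replicate 3 stood above the control range and the rest of its group did not. The rise in PGR-A OE was 0.66 on the log2 scale (SE 0.10, edgeR quasi-likelihood, Benjamini-Hochberg adjusted p = 0.00835). The log2 change in PGR-B OE was 0.06 (95% interval -0.15 to 0.27, adjusted p = 0.896 by edgeR), and -0.04 without PGR-B OE replicate 3. Read counts do not show how much RNA was edited.

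Pgbd5 was low throughout, at 2.68, 2.73, 2.94 and 1.73 CPM in the control libraries. PGR-A OE held 5.65, 4.54, 5.43 and 5.55 CPM, and PGR-B OE 2.09, 2.46, 1.77 and 2.75 CPM. All PGR-A OE libraries were above all others, and control replicate 4 and PGR-B OE replicate 3 were the lowest. The log2 change in PGR-A OE was 1.07 (SE 0.19, edgeR quasi-likelihood, Benjamini-Hochberg adjusted p = 0.0256). This call ended without control replicate 1 (adjusted p = 0.083), control replicate 2 (0.0823), PGR-A OE replicate 1 (0.0849) or PGR-A OE replicate 3 (0.056), and in a fit of the 8 libraries compared (0.0507), while its log2 values without single libraries lay from 0.93 to 1.15. In PGR-B OE the log2 change was -0.15 (95% interval -0.57 to 0.27).

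Nipal4 was at 13.96, 15.7, 15.4 and 15.6 CPM in control. PGR-A OE held 28.4, 23.2, 34.6 and 20.4 CPM, and PGR-B OE 9.47, 15.6, 11.5 and 13.8 CPM. The PGR-A OE libraries were all above the controls but spread widely, from replicate 4 to replicate 3. The log2 change in PGR-A OE was 0.82 (SE 0.17, edgeR quasi-likelihood, Benjamini-Hochberg adjusted p = 0.0581). DESeq2 called it (adjusted p = 0.00113), and limma voom did not (adjusted p = 0.0709). Without PGR-A OE replicate 4 the log2 change was 0.92 and passed (adjusted p = 0.0295 by edgeR), and the highest adjusted p of the 8 such fits was 0.204, without control replicate 1. PGR-A OE replicate 4 is also the library high in Krt5, and the part of stratified epithelium in the Nipal4 levels was not tested. In PGR-B OE the log2 change was -0.27 (95% interval -0.64 to 0.11, adjusted p = 0.69 by edgeR), the lowest library being replicate 1.

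**Figure D2:**
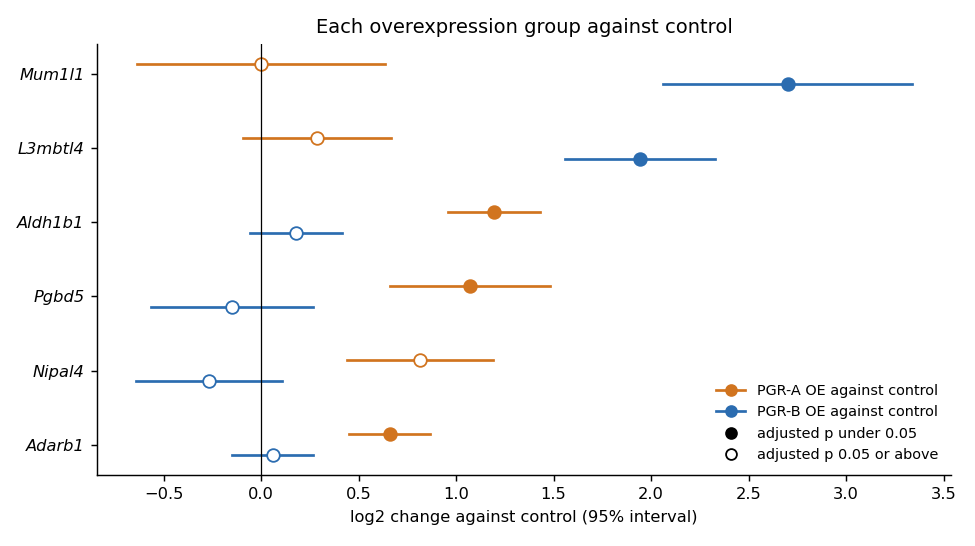
Log2 change of each gene in PGR-A OE and in PGR-B OE against control (horizontal axis) with its 95% interval; filled points have an adjusted p under 0.05 by edgeR. Of the PGR-A OE intervals, those of Aldh1b1, Pgbd5, Nipal4 and Adarb1 lie above 0, and of the PGR-B OE intervals those of Mum1l1 and L3mbtl4 do.

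In the comparison that chose the genes, PGR-B OE against PGR-A OE, the log2 difference was 2.702 for Mum1l1 and 1.66 for L3mbtl4, both higher with isoform B. It was -1.01 for Aldh1b1, -1.22 for Pgbd5, -1.08 for Nipal4 and -0.60 for Adarb1, all higher with isoform A. None of the 6 genes overlapped between these groups of 4 libraries, as was so for 3.85% of all genes tested. In that comparison 18 genes, or 0.116% of those tested, had an adjusted p under 0.05 by edgeR, and the 6 are among them. Without PGR-A OE replicate 4 the log2 differences were 2.96 for Mum1l1, 1.70 for L3mbtl4, -0.94 for Aldh1b1, -1.20 for Pgbd5, -1.19 for Nipal4 and -0.55 for Adarb1. With all 12 libraries the 6 genes held ranks 2, 3, 5, 14, 15 and 16 by p. Nrp2, the last of the 18, had a log2 difference of -0.72, and Slc24a3, the first gene beyond them, -0.70; neither was picked.

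**Figure D3:**
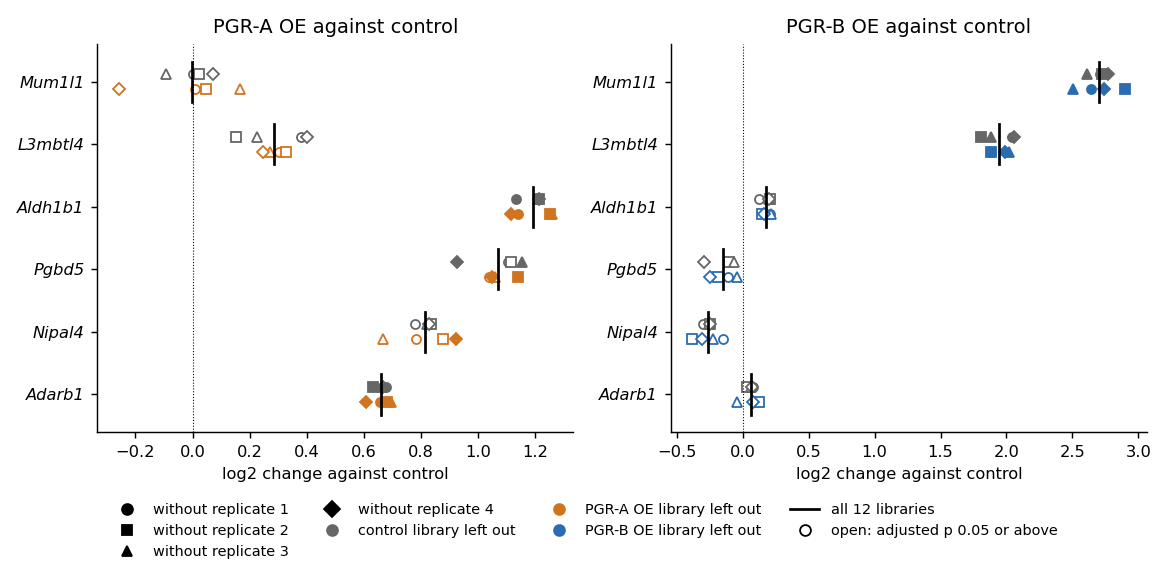
Log2 change against control (horizontal axis) for each gene after 1 library was left out, for PGR-A OE (left) and PGR-B OE (right). Marker shape and colour name the library left out, filled markers have an adjusted p under 0.05, and the black bar is the value with all 12 libraries. Mum1l1 and L3mbtl4 in PGR-B OE and Aldh1b1 and Adarb1 in PGR-A OE are filled in all 8 fits, Pgbd5 in PGR-A OE in 4 and Nipal4 in 1.

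Aldh1b1 and Adarb1 kept their call in PGR-A OE in all 8 fits, with adjusted p of at most 0.004 and 0.0424 by edgeR. Mum1l1 and L3mbtl4 kept theirs in PGR-B OE in all 8 fits, with adjusted p of at most 0.012 and 0.00414 by edgeR. Without PGR-A OE replicate 4 the PGR-A OE changes were 1.12 for Aldh1b1, 0.61 for Adarb1, 1.05 for Pgbd5 and 0.25 for L3mbtl4, and the adjusted p of Pgbd5 was then just under the threshold.

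Per kilobase of the gene length listed in the table, Aldh1b1 was the most abundant of the 6 in control, at 13.5 ± 1.15 RPKM (CPM divided by the length in kilobases; SD, n = 4). Nipal4 followed at 4.599 ± 0.24 and Adarb1 at 3.40 ± 0.14 RPKM, and these 3 did not overlap. Pgbd5 (0.89 ± 0.19), L3mbtl4 (0.79 ± 0.20) and Mum1l1 (0.48 ± 0.07 RPKM) formed the low end, where Pgbd5 and L3mbtl4 overlapped in range and Mum1l1 stayed below both. In PGR-B OE, Mum1l1 (3.13 ± 1.08) and L3mbtl4 (3.04 ± 0.45) reached the level of Adarb1 (3.54 ± 0.50 RPKM), from which they did not differ beyond their spread. In PGR-A OE, Aldh1b1 stood at 30.8 ± 4.74, Nipal4 at 8.10 ± 1.90 and Adarb1 at 5.37 ± 0.42 RPKM. The biological coefficient of variation, fitted over all 12 libraries, was highest of the 6 for Mum1l1, at 0.296, and lowest for Adarb1, at 0.115, against a median of 0.15 over all genes tested. Within single groups the order differed: among the controls the coefficient of variation of CPM was 25.2% for L3mbtl4, 21.4% for Pgbd5 and 14.3% for Mum1l1.

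The genes whose pattern over the 12 libraries was most like that of each member were found by Pearson's r of log2 CPM; such values are raised by the difference between the groups and are a description. Mum1l1 was most like Shisa6 (0.95), Egfem1 (0.92) and Ptn (0.92), and L3mbtl4 was most like Ptn (0.96), Aldh1a1 (0.96) and Shisa6 (0.94). Like the members, Shisa6, Egfem1, Ptn and Aldh1a1 are among the 18 genes called between the isoform groups. Their likeness is therefore no finding independent of the choice of the members. Ptn encodes the secreted growth factor pleiotrophin and averaged 212 CPM over the controls, 326 CPM over PGR-A OE and 983 CPM over PGR-B OE. Shisa6, which encodes a protein that binds glutamate receptors, had means of 0.0929, 0.156 and 1.83 CPM in the same order. Between themselves Mum1l1 and L3mbtl4 had an r of 0.90.

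Aldh1b1 was most like 3 alpha-1-antitrypsin genes, Serpina1c (0.96), Serpina1b (0.95) and Serpina1a (0.94). These 3 are also among the 18 genes called between the isoform groups. Serpina1c had no count in any control library and averaged 2.97 CPM over PGR-A OE and 0.0154 CPM over PGR-B OE. Reads may be split between these near-identical paralogs, which makes each count uncertain. Pgbd5 was most like Mtss1l (0.95), Slc24a3, a sodium, calcium and potassium exchanger gene (0.94), and Serpina1b (0.94). Adarb1 was most like Actn4, which encodes an actin-binding alpha-actinin (0.93), Serpina1c (0.92) and Inpp4a, which encodes a phosphoinositide phosphatase (0.92). In PGR-A OE against control, Mtss1l, Actn4 and Inpp4a did not pass (adjusted p = 0.0967, 0.109 and 0.076 by edgeR). Slc24a3 (adjusted p = 0.0446 by edgeR) and the Serpina1 genes named here did.

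Nipal4 was most like Slco3a1, an organic anion transporter gene (0.94), Ifi44, an interferon-induced gene (0.91), and Des, the gene of the muscle filament protein desmin (0.91). Slco3a1 averaged 22.4 CPM over the controls, 27.9 CPM over PGR-A OE and 20.5 CPM over PGR-B OE. None of these 3 passed in PGR-A OE against control, with adjusted p of 0.161, 0.119 and 0.113 by edgeR. Among the 4 genes high in PGR-A OE, r ran from 0.71 for Nipal4 with Adarb1 to 0.90 for Aldh1b1 with Adarb1. Of the genes named for likeness, Shisa6, Egfem1, Aldh1a1, Serpina1b, Serpina1c, Slc24a3, Actn4, Inpp4a, Slco3a1 and Des have spans that overlap another gene model. Overlap of exons was not checked for them, so their counts may be less certain.

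**Figure D4:**
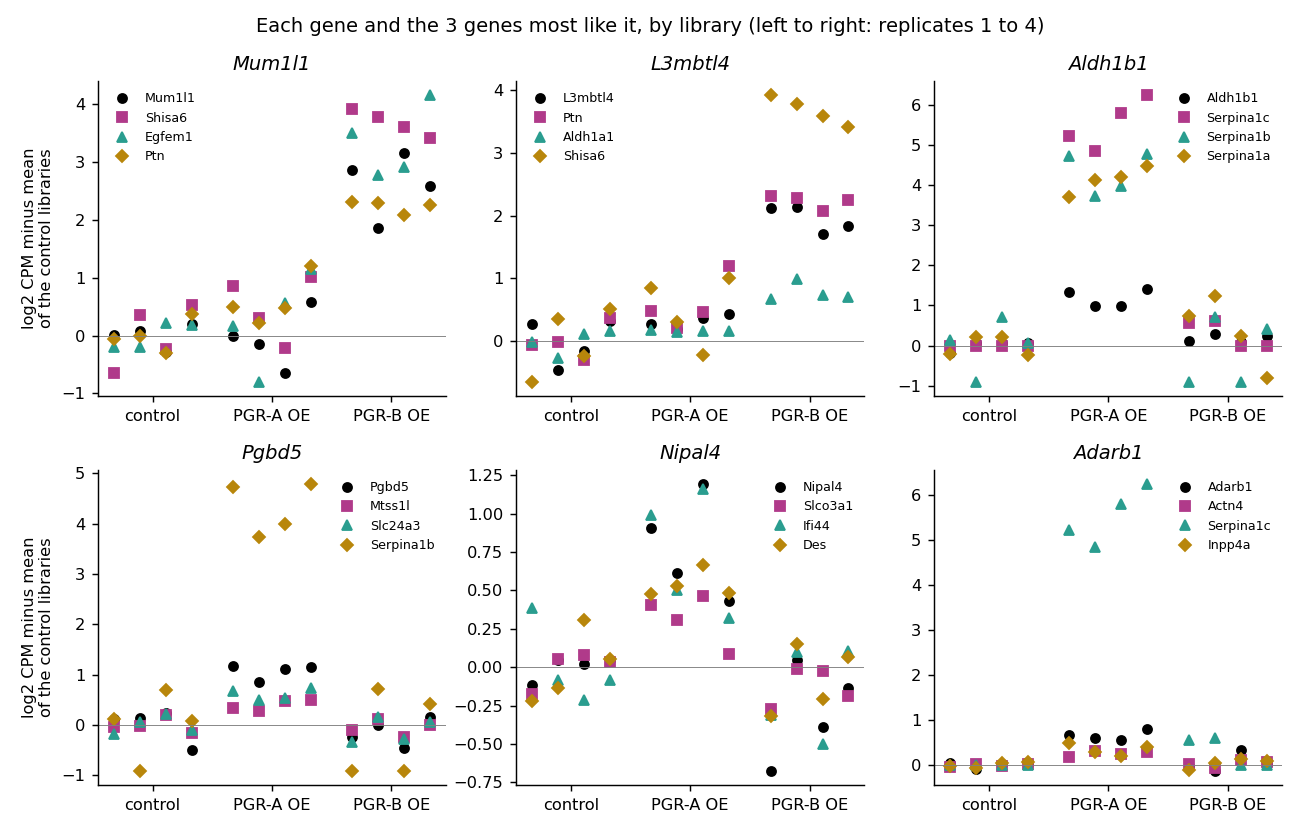
Log2 CPM minus the mean of the control libraries (vertical axis, scaled per panel) for each gene in black and the 3 genes most like it in colour, in the 12 libraries by group (horizontal axis). Mum1l1 and L3mbtl4 share Ptn and Shisa6 among their 3, and Nipal4 and its 3 genes are low together in PGR-B OE replicate 1.

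Few relatives of the 6 genes passed. Of 17 tested aldehyde dehydrogenases beside Aldh1b1, 1 fell in PGR-A OE and 1 rose in PGR-B OE, where 0.174% and 0.283% of all genes tested did. Aldh1a7 fell in PGR-A OE, to 0.627 ± 0.15 CPM from a control level of 2.47 ± 1.05 CPM (log2 -1.97, adjusted p = 0.0157 by edgeR), in the direction opposite to Aldh1b1. Without PGR-A OE replicate 4 its log2 change was -2.08 (adjusted p = 0.0258 by edgeR). It was the 1 gene of all the lists of relatives that passed in PGR-A OE without that library. Its level in PGR-B OE was 4.72 ± 0.956 CPM. Aldh1a1, a cytosolic enzyme that makes retinoic acid, rose in PGR-B OE, to 30.2 ± 3.27 CPM from a control level of 17.6 ± 2.27 CPM (log2 0.77, adjusted p = 0.00535 by edgeR) and was at 19.6 ± 0.194 CPM in PGR-A OE. These 2 genes are close paralogs and neighbours on chromosome 19, so reads may be split between them. The median log2 change of the 17 was 0.08 in PGR-A OE and 0.01 in PGR-B OE, beside medians of 0.001 and -0.005 for all genes tested.

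Of 10 tested RNA editing enzymes and regulators beside Adarb1, 0 passed in either comparison by edgeR (2 in PGR-A OE and 1 in PGR-B OE at an unadjusted p under 0.05, as had 15.4% and 9.28% of all genes tested). Adarb2, the paralog of Adarb1 known from the brain, averaged 1.68 ± 0.273 CPM over the controls, 1.93 ± 0.753 CPM over PGR-A OE and 4.04 ± 1.39 CPM over PGR-B OE, where its libraries did not overlap the controls (log2 1.26, adjusted p = 0.151 by edgeR). In PGR-B OE 3.07% of all genes tested lay above the controls without overlap. Zfr, a zinc finger RNA-binding protein gene, had a log2 change of -0.16 in PGR-A OE. Adar, the gene of the other active editing enzyme, was chosen after its values were seen, and had log2 changes of 0.16 in PGR-A OE and 0.02 in PGR-B OE. Adarb2, Zfr and Adar overlap other gene models. Of 16 tested transcripts known to be edited, 0 passed in either comparison by edgeR (1 at an unadjusted p under 0.05 in each). Igfbp7, a secreted binding protein gene, had log2 changes of 0.32 and 0.28, and Flna, the filamin A gene, of 0.32 and -0.05 in PGR-A OE and PGR-B OE. Without PGR-A OE replicate 4 the log2 changes in PGR-A OE were 0.24 for Igfbp7 and 0.1 for Flna. Igfbp7 overlaps other gene models.

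Of 22 tested genes with MBT or PWWP domains beside L3mbtl4 and Mum1l1, 0 passed in either comparison by edgeR. At an unadjusted p under 0.05 by edgeR, 2 passed in PGR-A OE and 1 in PGR-B OE, beside 15.4% and 9.28% of all genes tested. Mbtd1, of the MBT family, had log2 changes of -0.25 in PGR-A OE and -0.26 in PGR-B OE. Mum1, the nearest relative of Mum1l1, had a log2 change of 0.24 in PGR-A OE (adjusted p = 0.298 by edgeR) and of 0.11 in PGR-B OE (adjusted p = 0.797 by edgeR).

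Of 17 tested magnesium transporters beside Nipal4, 0 passed in either comparison by edgeR (5 in PGR-A OE and 2 in PGR-B OE at an unadjusted p under 0.05, as had 15.4% and 9.28% of all genes tested). Their median log2 change was -0.17 in PGR-A OE, but -0.012 there without PGR-A OE replicate 4, and -0.03 in PGR-B OE. Magt1 had log2 changes of -0.37 in PGR-A OE and -0.12 in PGR-B OE, and Mmgt1 of -0.29 and -0.30. Of 8 tested skin barrier lipid genes, 0 passed by edgeR (2 in each comparison at an unadjusted p under 0.05). Tgm1, a transglutaminase gene, averaged 8.18 ± 0.768 CPM over the controls and 5.89 ± 1.85 CPM over PGR-B OE (log2 -0.47). Cers3, a ceramide synthase gene, averaged 0.605 ± 0.115 CPM over the controls, 1.09 ± 0.463 CPM over PGR-A OE and 1.13 ± 0.498 CPM over PGR-B OE. Mmgt1 and Tgm1 each overlap another gene model.

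Of 13 tested transposase-derived genes beside Pgbd5, 0 passed in either comparison by edgeR. At an unadjusted p under 0.05 by edgeR, 3 passed in each, beside 15.4% of all genes tested in PGR-A OE and 9.28% in PGR-B OE. Zbed4 had log2 changes of -0.33 and -0.31 in PGR-A OE and PGR-B OE, and Pogk, which overlaps Tada1, of -0.21 and -0.14. Of 10 genes of DNA end joining, the repair route tied to piggyBac-type cutting, 0 passed by edgeR (1 in PGR-A OE and 2 in PGR-B OE at an unadjusted p under 0.05). The ligase gene Lig4 had a log2 change of -0.28 in PGR-A OE, and Xrcc5, a Ku subunit gene, of 0.26 in PGR-B OE.

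Markers of cell types were read beside these results. The summed level of 10 smooth muscle markers ran from 12300 to 16200 CPM in control, from 16600 to 22900 CPM in PGR-A OE and from 12000 to 15800 CPM in PGR-B OE. It was thus higher in the group in which Aldh1b1, Pgbd5, Nipal4 and Adarb1 were high, and its part in those levels was not tested. Of these 10, Myh11, Actg2, Des and Synm lay above the control range in every PGR-A OE library, as did 5.01% of all genes tested. Acta2, Cnn1, Tagln, Smtn, Lmod1 and Myocd overlapped the control range there. Myocd ran from 15.7 to 27.3 CPM in PGR-A OE and from 16 to 17.5 CPM in control. All 10 were present in every group. The highest sum was in PGR-A OE replicate 4 and the highest of the other 3 libraries of that group was at 19600 CPM. Of 7 fibroblast markers, the collagen genes Col1a1, Col1a2 and Col3a1 lay above the control range in every library of both overexpression groups. Such a lack of overlap was found for 5.01% of all genes tested in PGR-A OE and for 3.07% in PGR-B OE. Col1a1 ran from 11100 to 12500 CPM among the controls, from 13800 to 17100 CPM in PGR-A OE and from 14100 to 17900 CPM in PGR-B OE. Pdgfra, Dcn, Lum and Dpt overlapped the control range in both groups. The collagen genes make up most of the summed level of the 7, which ran from 34300 to 36200 CPM, from 39300 to 50400 CPM and from 40600 to 50800 CPM in the same order of groups. The part of these levels in the results was not tested.

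The sum of 6 stratified epithelium markers reached 884 CPM in PGR-A OE replicate 4, and the other 11 libraries ran from 3.16 to 6.9 CPM. Sums of 8 endothelial, 8 epithelial, 8 leukocyte, 5 mesothelial and 7 neuronal and glial markers had ranges that overlapped between all groups. That of 7 decidual markers ran from 98.9 CPM in PGR-A OE replicate 4 to 5120 CPM in a control library. Most of this span came from Prl8a2, whose own level went from 5.02 CPM, in that PGR-A OE library, up to 5050 CPM, in a control. The markers did not move as a set. Wnt4 (9.61 CPM) and Dio3 (24.8 CPM) were highest in that PGR-A OE library, against at most 4.29 and 18.6 CPM elsewhere. Its levels of Prl3c1, Bmp2, Hand2 and Alpl lay within those of the other libraries. Markers of trophoblast and yolk sac summed to at most 9.54 CPM in any library, with the trophoblast gene Gcm1 at 0 throughout, and red blood cell markers to at most 32.3 CPM, with Hba-a1, Hbb-bs and Hbb-bt at 0.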

How the data were processed

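RNA of 12 libraries was sequenced paired-end at 75 bases. The authors deposited a table of raw counts by gene together with each gene's length. The submitters' processing notes list STAR 2.7.0f, Bowtie2 2.2.5, Subread 1.6.4, featureCounts and DESeq2, and the builds mm10 and GRCm38. Their annotation, strand setting and handling of multiply mapped reads are not stated there. Counts were fitted in R 4.3.3 with edgeR 4.0.16 (TMM, filterByExpr, robust quasi-likelihood, all 12 libraries in 1 fit), with Benjamini-Hochberg adjustment over 15561 genes and a threshold of 0.05. Alternatives were DESeq2 1.42.0, limma 3.58.1 voom, DESeq2 size factors, no filter, the 8 libraries compared, a replicate block and leaving out each library. The fit was tested on simulated data. Log2 CPM used a prior count of 2. No pair of libraries within a group held identical counts.

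The 6 genes, the lists and the tests were chosen with earlier results of these data known. Besides these genes, Pgr and Myh11, the text names the 3 genes most like each (Myh11 enters the smooth muscle sum), and of each list the genes that passed or the 2 with the lowest p. Results for replicate pairing are in the closing section.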

Additional observations from a re-analysis of the deposited data

Results flagged for a closer look

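Aldh1b1 was at 27.0 CPM in control replicate 1, apart from the 32.1 to 32.5 CPM of the other 3 control libraries, a gap of 0.941 of the range of the group and past Dixon's critical value for 4 samples. Chance flags about 1 in 20 groups, and 18 groups were examined, of which this was the 1 flagged.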

How the results depend on the processing

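Aldh1b1 and Adarb1 in PGR-A OE and Mum1l1 and L3mbtl4 in PGR-B OE kept direction and call under all 6 alternatives other than leaving out a library and in all 8 fits without a library. Of 6 genes, between 2 and 4 passed in PGR-A OE and 2 in PGR-B OE when a library was left out. The sign of the Mum1l1 change in PGR-A OE turned to 0.003 with the 8 libraries compared and ran from -0.258 to 0.167 without single libraries; the Adarb1 change in PGR-B OE ran from -0.04 to 0.122. Neither had passed. DESeq2 called 575 genes in PGR-A OE against control (293 higher, 282 lower), 216 in PGR-B OE (143 higher, 73 lower) and 125 between the isoforms, where edgeR called 102 (75 higher, 27 lower), 48 (44 higher, 4 lower) and 18; the cause was not tested. With only the 8 libraries compared the counts were 63 for PGR-A OE, 44 for PGR-B OE and 10 between the isoforms. Without single libraries they ran from 32 to 99 in PGR-A OE, from 22 to 48 in PGR-B OE and from 11 to 31 between the isoforms. They fell by over 1.5 times in PGR-A OE without control replicates 1 (32) or 2 (43) or PGR-A OE replicates 1 (44) or 2 (56), and in PGR-B OE without control replicates 1 (24) or 2 (22) or PGR-B OE replicate 4 (28). Between the isoforms the count was 11 without PGR-A OE replicate 1, PGR-A OE replicate 2 or PGR-B OE replicate 1, and rose to 31 when PGR-A OE replicate 4 was left out. Replicate numbers did not pair the samples: deviations of same-numbered libraries had correlations from -0.257 to 0.19, and 3 of 12 matched best with their own number. With the replicate block the counts were 69, 32 and 11, and Pgbd5 in PGR-A OE had an adjusted p of 0.087 by edgeR. At about 2 CPM in control, Mum1l1 and Pgbd5 rest on 58 to 93 counts per control library, which limits their precision. The refit of Pgr and of the lists of relatives without PGR-A OE replicate 4 was chosen after seeing the data.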
